A study of Mus musculus with 22 samples.

Results

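The variable segments of immunoglobulin genes were followed in nonlesional skin and whole blood of mice that carry a keratin 5-driven VGLL3 transgene and of wild-type mice. A segment was taken as a member if its symbol starts with Ighv, Igkv or Iglv and its counts, summed over the 8 skin libraries, reached 10. By this rule 126 of the 134 variable segment symbols were members, out of 24401 genes in the tissue count table: 58 of 62 heavy, 65 of 69 kappa and 3 of 3 lambda segments. The members were thus chosen on their skin counts, pooled over both genotypes. Just inside the minimum lay Ighv8-8 with 11 counts and Ighv1-63 and Ighv7-1 with 12 each. Just outside lay Ighv1-47, Ighv1-52 and Igkv14-100 with 9 each, Igkv4-58 with 8, Ighv11-2 with 6, Igkv2-112 with 5, Igkv13-85 with 1 and Ighv9-1 with 0. In skin, members held at least 98.8% of all variable segment reads of each library.

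An antibody consists of heavy chains paired with light chains, which are of kappa or lambda type. In each developing B cell, 1 variable segment of a locus is joined to diversity and joining segments (heavy chain) or to a joining segment (light chain), and the product is transcribed together with a constant region. The variable part binds antigen, and a cell's descendants keep its joined segments. The use of many segments at like levels is therefore the pattern of many B cell lineages, while a few expanded lineages, or plasma cells rich in antibody RNA, can make single segments prominent. B cells in blood are mostly naive cells with little antibody RNA each, and plasma cells in tissues hold far more. Bulk counts cannot tell more cells from more RNA per cell.

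All 126 members were matched in the mm10 annotation, and none is annotated as a pseudogene. The heavy members lie on chromosome 12 (113588267 to 116000461), the kappa members on chromosome 6 (67609713 to 70699067) and the lambda members on chromosome 16 (19085017 to 19260859). Their exons span 338 to 425 bases (median 362), so counts of different members are on nearly the same length scale. The germline sequences of the segments that led a skin library, of Ighv5-16 and of Iglv3, the most frequent leader in blood, are shown as the last 78 coding bases of the reference transcript (GENCODE M21, mm10). Capitals mark the last in-frame cysteine codon, after which the third complementarity-determining region, the most variable loop of the antibody, begins. These are reference sequences; the joined and mutated sequences of these animals were not analysed here.
Igkv6-15 (chr6:70406469-70406546, minus strand): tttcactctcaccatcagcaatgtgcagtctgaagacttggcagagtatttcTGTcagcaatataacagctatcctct
Igkv1-117 (chr6:68121750-68121827, plus strand): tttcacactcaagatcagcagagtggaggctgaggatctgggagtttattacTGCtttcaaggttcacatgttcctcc
Igkv8-27 (chr6:70171809-70171886, minus strand): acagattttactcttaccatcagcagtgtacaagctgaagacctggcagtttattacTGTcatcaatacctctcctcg
Igkv8-28 (chr6:70143593-70143670, minus strand): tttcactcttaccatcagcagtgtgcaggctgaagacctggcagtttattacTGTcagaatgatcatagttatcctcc
Igkv8-30 (chr6:70117061-70117138, minus strand): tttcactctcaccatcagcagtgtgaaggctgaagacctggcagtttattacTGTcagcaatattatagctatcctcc
Igkv2-109 (chr6:68303081-68303158, plus strand): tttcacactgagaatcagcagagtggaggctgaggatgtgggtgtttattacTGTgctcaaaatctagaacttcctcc
Iglv1 (chr16:19085017-19085094, minus strand): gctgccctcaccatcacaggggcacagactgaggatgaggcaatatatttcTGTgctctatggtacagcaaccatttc
Iglv3 (chr16:19241207-19241284, minus strand): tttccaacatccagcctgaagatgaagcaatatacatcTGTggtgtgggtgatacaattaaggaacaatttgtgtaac
Ighv5-16 (chr12:113838526-113838603, minus strand): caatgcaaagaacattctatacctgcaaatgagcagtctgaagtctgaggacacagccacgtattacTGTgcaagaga
The kappa leaders of skin came in part from a single family. Over their full coding sequences Igkv8-28 and Igkv8-30 were 91.0% identical, Igkv8-27 and Igkv8-28 90.3%, and Igkv8-27 and Igkv8-30 88.6%, whereas Igkv2-109 matched these 3 at 67.5% to 69.6%. Some members have closer copies elsewhere: Igkv8-28 was 97.5% identical to Igkv8-19, Igkv1-117 97.2% to Igkv1-110, and Iglv1 96.9% to Iglv2. Of the 126 members, 64 had another annotated segment at more than 95% identity and 6 at more than 98%. The median member still had 77.7% of its 50-base stretches in no other annotated segment. How reads matching several segments were counted is not given in the sources used here, so the division of counts between Iglv1 and Iglv2, or between Igkv1-117 and Igkv1-110, is uncertain.

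Skin and blood came from the same 8 animals, 4 transgenic (K5-VGLL3; strain label VGLL3_TG) and 4 wild-type (WT), described as matched for age and sex. K5 stands for keratin 5, a protein of the basal epidermal layer, whose promoter drives the transgene, and VGLL3 is a cofactor of transcription. Animals 1 and 2 of each genotype were male and animals 3 and 4 female; their ages are not stated. Tail keratinocytes of littermates 23 days old (3 per genotype), grown for 3 days, were taken as cells without an antibody-producing lineage. The transgenic cultures were all male and the wild-type cultures of both sexes, so genotype and sex are not separate there. Skin libraries held 19600892 to 40678246 counts and blood libraries 11197265 to 18235483. As a check of the tissues, Krt5 had 51664 to 173873 counts in skin and 6 to 192 in blood, with 178 to 192 in wild-type blood and 6 to 24 in transgenic blood. Vgll3 had 3013 to 27381 counts in transgenic skin, the highest in animal 2, and 1475 to 2322 in wild-type skin, so the labels and this gene went together; it did not pass the skin test over all genes (edgeR adjusted p = 0.239).

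Variable segment RNA was more abundant in every transgenic skin library than in any wild-type one. The members' summed counts were 9520, 4136, 1683 and 1045 in transgenic animals 1 to 4, and 112, 260, 148 and 168 in wild-type animals 1 to 4. In CPM, counts scaled to a common library size after TMM adjustment, these were 274, 118, 68.6 and 28.2 against 5.53, 10.3, 3.92 and 4.50. The group means were 122 ± 108 CPM (SD, n = 4) and 6.08 ± 2.92 CPM (SD, n = 4), a ratio of 20.1. Levels did not overlap, and the transgenic libraries differed widely among themselves. Within males the transgenic values were 274 and 118 against 5.53 and 10.3, and within females 68.6 and 28.2 against 3.92 and 4.50. Animal 1 alone held 55.8% of all member counts in skin, and the 4 transgenic libraries together 96.0%. As a sum over members chosen on these counts, this level is given without a test.

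**Figure D1:**
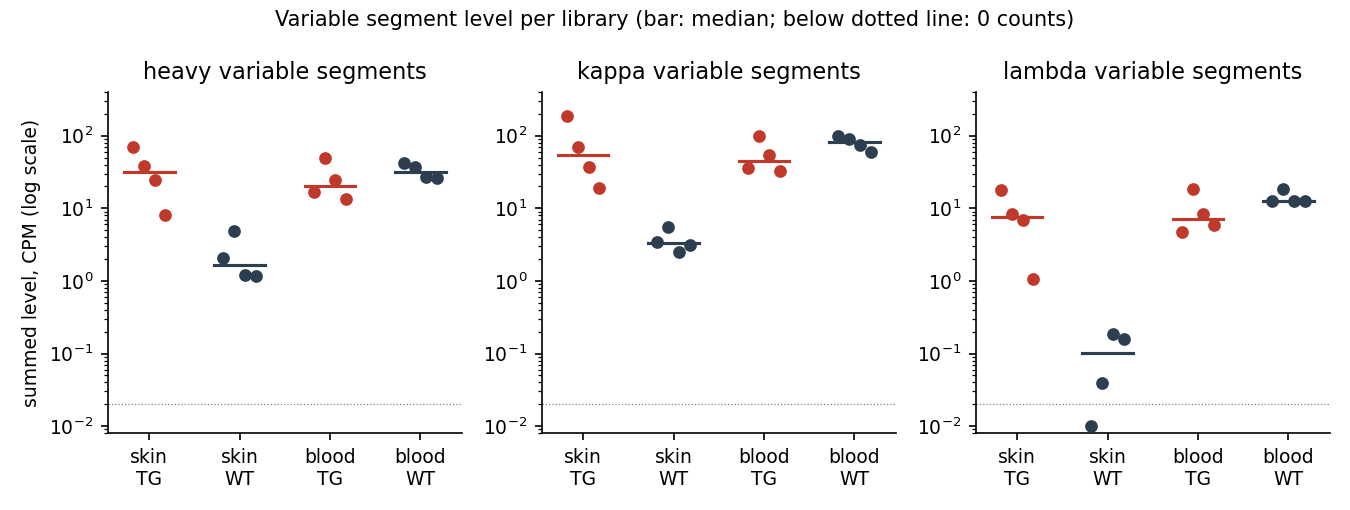
Summed level of heavy, kappa and lambda variable segments in each library, in CPM on a log axis; each point is 1 library (animals 1 to 4 from left to right), bars are medians, and points under the dotted line had 0 counts. In skin the transgenic points lie above all wild-type points for each chain, while in blood the groups overlap.

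The difference held for each chain. Heavy segments had 70.8, 38.2, 24.2 and 7.99 CPM in transgenic skin against 2.07, 4.86, 1.22 and 1.18 in wild-type skin. Kappa segments, the main light chain of the mouse, had 185, 71.0, 37.6 and 19.2 CPM against 3.46, 5.45, 2.52 and 3.16. Lambda segments had 630, 294, 167 and 39 counts in transgenic skin but 0, 1, 7 and 6 in wild-type skin. Kappa made up 54.8% to 67.9% of the member counts in transgenic skin, 52.7% to 70.2% in wild-type skin and 59.6% to 65.7% in blood, so its share overlapped throughout.

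In blood the members' counts were 1468, 3160, 1039 and 713 in transgenic animals and 2751, 1139, 1791 and 770 in wild-type animals. The levels were 57.7, 166, 87.5 and 52.1 CPM against 154, 144, 115 and 99.1 CPM. The mean of 90.8 ± 52.5 CPM (SD, n = 4) in transgenic blood lay below the 128 ± 25.5 CPM (SD, n = 4) in wild-type blood, but transgenic animal 2 had the highest value of all and the groups overlapped. Skin of transgenic animals 1 and 2 thus held 274 and 118 CPM of variable segment RNA where their blood held 57.7 and 166 CPM. RNA of skin and blood was isolated with different kits, so levels across tissues carry no correction for the kit. Red cell genes, haemoglobin among them, summed to 408298 to 832165 CPM in transgenic and 422051 to 1272280 CPM in wild-type blood. In skin they summed to 112 to 161 and 56.9 to 537 CPM. They took up a large part of the blood reads, so CPM of skin and of blood are not on a like scale.

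Breadth was first measured as the number of members with at least 1 count. Transgenic skin had 115, 113, 80 and 60 members and wild-type skin 16, 28, 38 and 48, so the groups did not overlap, while blood had 109 to 125 in all 8 libraries. In wild-type skin 44 members had no count in any library; in transgenic skin only Ighv3-1 and Ighv8-8 had none. The number seen depends on the number of reads. When each library was brought to the 112 member reads of the smallest by closed-form rarefaction, the expected numbers were 44.1, 51.4, 42.0 and 30.3 in transgenic skin and 16, 23.2, 35.7 and 41.2 in wild-type skin. At equal reads the genotypes therefore overlapped. All 8 skin libraries stayed below all 8 blood libraries, which had 56.0 to 59.6.

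The effective number of segments, the inverse Simpson index, gives the number of equally used segments that would yield the same concentration. It was 29.0, 40.8, 27.0 and 6.42 in transgenic skin, 4.37, 14.2, 22.0 and 28.9 in wild-type skin and 50.3 to 58.5 in blood. Animal 4 of the transgenic group and animal 1 of the wild-type group were the lowest, and the genotypes overlapped. No blood library was as concentrated as any skin library.

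**Figure D2:**
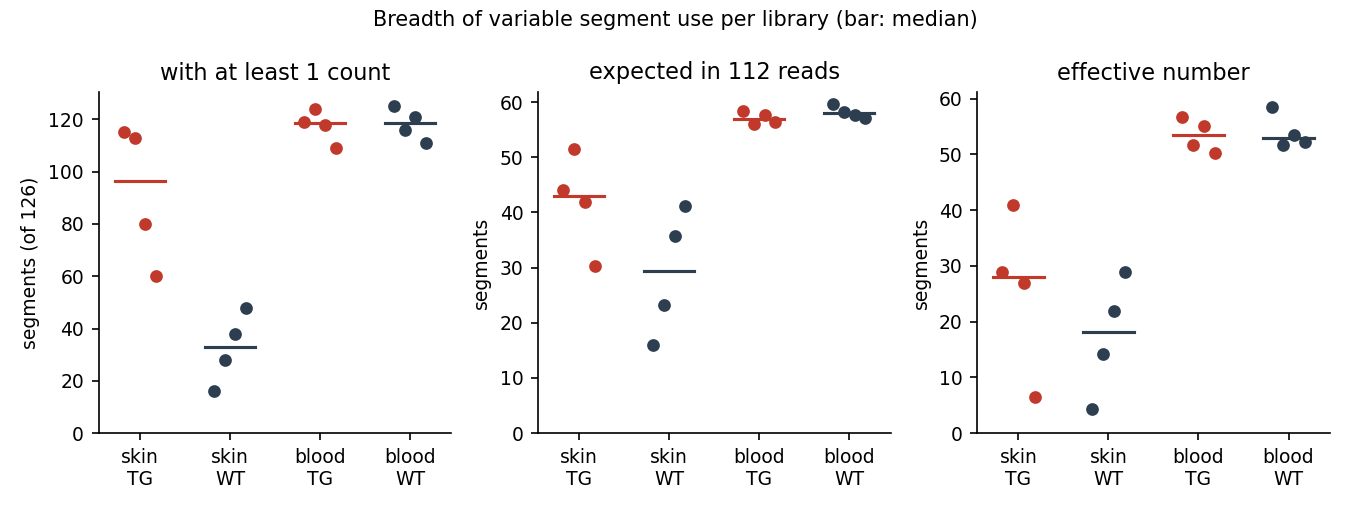
Breadth of variable segment use in each library: members with at least 1 count, members expected in 112 reads, and the effective number. Points are libraries in animal order and bars medians. Raw numbers separate the skin genotypes, whereas at equal reads they overlap and every skin value lies below every blood value.

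Over all chains 7 segments led the 8 skin libraries, with Igkv8-30 leading in 2 of them, and 4 segments led the 8 blood libraries. In transgenic skin the leading segment was Igkv6-15 in animal 1 with 8.83% of member reads (exact binomial 95% interval 8.27% to 9.42%), Iglv1 in animal 2 with 6.79% (6.05% to 7.60%), Igkv1-117 in animal 3 with 10.6% (9.20% to 12.2%) and Igkv8-28 in animal 4 with 36.7% (33.8% to 39.8%). In wild-type skin it was Igkv2-109 in animal 1 with 42.0% (32.7% to 51.7%), Igkv8-30 in animal 2 with 14.6% (10.6% to 19.5%) and in animal 3 with 14.2% (9.003% to 20.9%), and Igkv8-27 in animal 4 with 10.7% (6.47% to 16.4%). Such intervals cover counting error only, since the reads carry no molecular identifiers. The leading share in blood was 5.02% to 6.85%, held by Iglv3 in 5 libraries, Igkv1-117 in 1, Igkv10-96 in 1 and Iglv1 in 1.

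**Figure D3:**
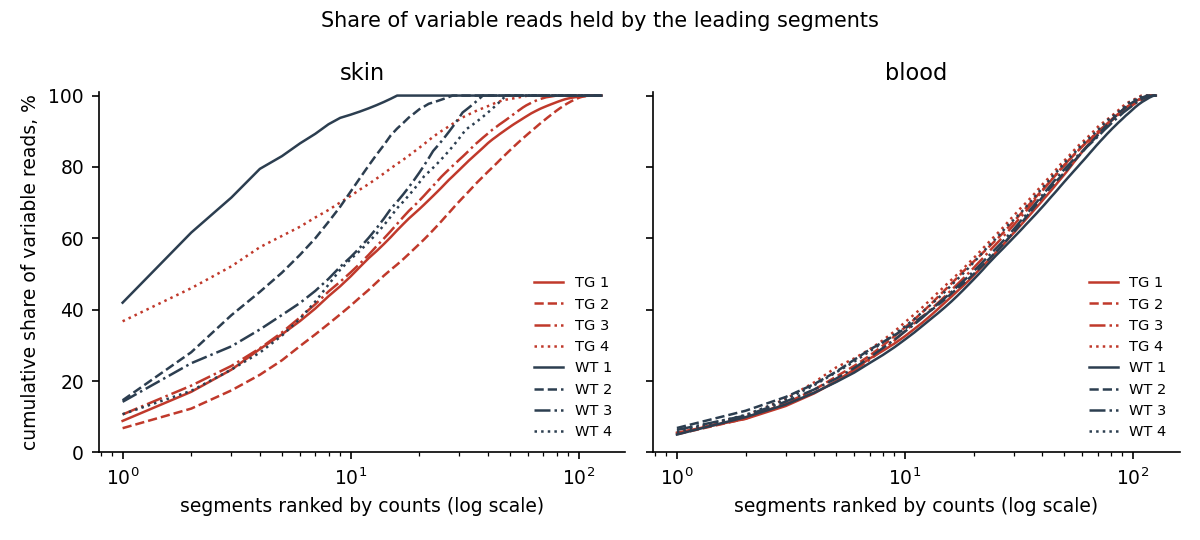
Cumulative share of the variable segment reads against the rank of the segments (log axis), 1 line for each library. The 8 blood lines lie together, with 31.6% to 36.5% of reads in the 10 leading segments. The skin lines fan out, from 41.1% in transgenic animal 2 to 94.6% in wild-type animal 1.

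The 10 leading segments held 49.3%, 41.1%, 50.4% and 71.9% of member reads in transgenic skin and 94.6%, 73.1%, 54.7% and 54.2% in wild-type skin. The most concentrated library of each genotype stood apart: 3 segments made up at least 50% of the reads in transgenic animal 4 and 2 segments in wild-type animal 1, against 18 to 22 in blood. Although wild-type skin had few reads, 4 members had their highest count in a wild-type library: Ighv1-76 in animal 1 and Ighv3-1, Ighv5-6 and Ighv8-8 in animal 2.

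Heavy chain leaders differed in the 4 transgenic skin libraries. Ighv6-6 led in transgenic animal 1 with 328 counts, against 20, 7 and 15 in animals 2 to 4, 0 in every wild-type skin library and 3 to 31 in blood. Against a floor of 3 counts over the wild-type group its pooled level was at least 113-fold higher in transgenic skin, and at least 17.4-fold without animal 1. Ighv5-16 led in animal 2, with 37, 181, 14 and 10 counts in the transgenic animals and 0, 0, 0 and 2 in the wild-type animals. Its groups did not overlap, and the ratio of pooled levels was 111 (95% counting interval 30.3 to 920), or 38.1 without animal 2 (10.1 to 322). Ighv1-22 led in animal 3 with 83 counts beside 5, 18 and 1 in the others, and Ighv1-4 in animal 4 with 97 counts beside 6, 4 and 1. Each leader thus had most of its skin counts in 1 transgenic animal. This in part restates how the leaders were chosen, by their height in 1 library. It was also common among members: 95 of the 126 had most of their skin counts in 1 library. The median share of a member's skin counts in its top library was 67.5%.

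Of the other heavy segments with many skin counts, Ighv1-9, Ighv3-6 and Ighv6-3 were spread more evenly. Transgenic animal 1 held 44.0% to 51.6% of their skin counts. It held 96.6% for Ighv1-80, 85.2% for Ighv1-53 and 69.4% for Ighv1-64. Ighv1-9 had 128, 47, 44 and 64 counts in transgenic skin and 1, 7, 0 and 0 in wild-type skin. Ighv3-6, found in all 8 skin libraries, had 230, 165, 18 and 9 against 4, 14, 1 and 5. Ighv6-3 had 103, 40, 71 and 7 against 0, 0, 2 and 0. Ighv1-9 and Ighv6-3 did not overlap between genotypes in CPM and Ighv3-6 did. Ighv1-80 had 257, 2, 3 and 0 counts in transgenic skin and 4 in a single wild-type library, so it rested on animal 1. Ighv1-53 had 184, 1, 24 and 0, and Ighv1-64 had 150, 26, 36 and 3, with 0 to 4 counts of either in each wild-type library.

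A few heavy segments were prominent in wild-type skin. Ighv1-76 had 22 of the 42 heavy reads of wild-type animal 1, and 14, 15, 17 and 3 counts in transgenic skin, a ratio of pooled levels of 1.60, or 6.22 without wild-type animal 1. Ighv3-1 had 35 counts in wild-type animal 2 and 8 in animal 4, but 0 in each of the 4 transgenic skin libraries, at least 15.7-fold lower against a floor of 3 counts over the group, and at least 3.68-fold without wild-type animal 2. Its blood counts were 0 to 5. Ighv1-26 and Ighv2-3 led the heavy reads of wild-type animals 3 and 4 with only 5 and 8 counts. Both were ties, with Ighv1-76 and Ighv3-1, the segments that led wild-type animals 1 and 2.

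Kappa segments supplied the largest counts. Igkv6-15 had 841 counts in transgenic animal 1 and 10, 10 and 7 in animals 2 to 4, against 0, 0, 4 and 2 in wild-type skin, so its position rested on 1 library. Igkv8-24 had 776, 168, 24 and 0 against 0, 0, 1 and 1. Igkv4-55 had 590, 1, 34 and 22 against 0, 0, 0 and 2, and Igkv4-72 had 551, 30, 7 and 12 against 0, 0, 5 and 2. These 4 segments reached their highest counts in the same animal.

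Igkv8-28 had 384 counts in transgenic animal 4, or 54.1% of that library's kappa reads, and 1, 86 and 7 in animals 1 to 3. It had 0 in wild-type skin, at least 146-fold lower than in transgenic skin against the floor of 3 counts over the group (at least 39.96-fold without transgenic animal 4), and 4 to 20 in blood. Igkv1-117 had 190, 61, 179 and 3 in transgenic skin against 0, 3, 0 and 0. Igkv5-48 led the kappa reads of transgenic animal 2 with 227 counts, and also had 27 in wild-type animal 2. Igkv2-109, with 47 of the 70 kappa reads of wild-type animal 1, had 81, 1, 22 and 0 in transgenic skin. Igkv8-30 led the kappa reads of wild-type animals 2 and 3 with 38 and 21 counts, beside 86, 51, 14 and 2 in transgenic skin, a ratio of pooled levels of 2.34, or 1.39 without transgenic animal 1. Igkv8-27 had 394, 19, 11 and 11 in transgenic skin and 0, 0, 2 and 18 in wild-type skin. Igkv10-96, which led the kappa reads in 6 of 8 blood libraries, had, in skin, 262, 122, 46 and 22 against 0, 8, 7 and 8.

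**Figure D4:**
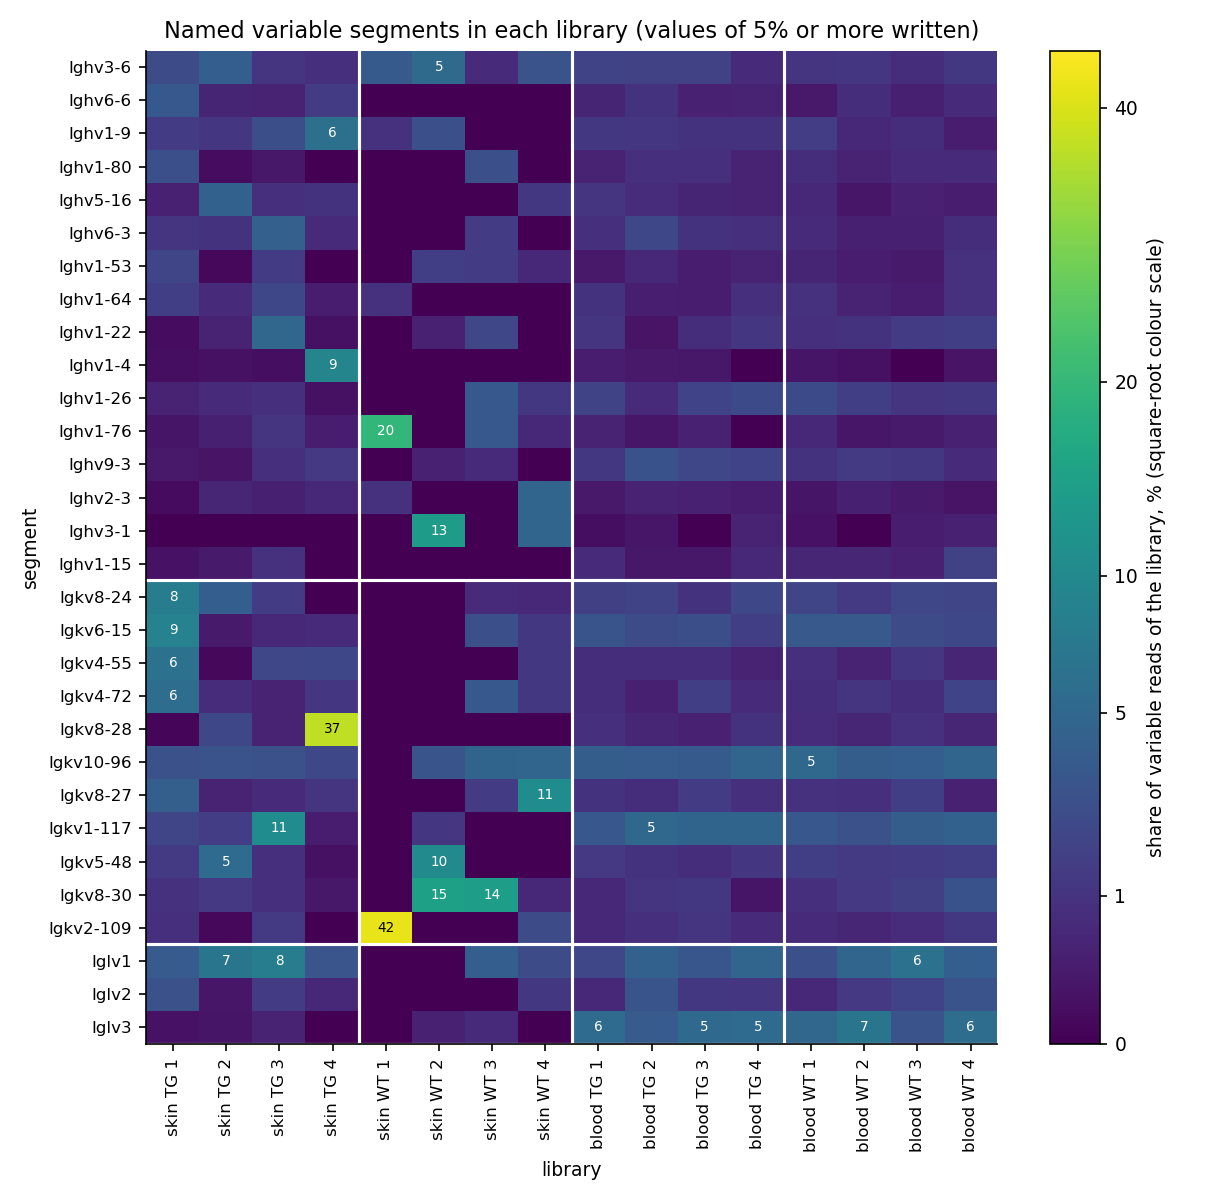
Share of each library's variable segment reads held by the 30 named segments; columns are libraries, rows are segments grouped as heavy, kappa and lambda, and shares of 5% or more are written in the cell. Bright cells are scattered over single skin libraries, as Igkv8-28 with 36.7% in transgenic animal 4 and Igkv2-109 with 42.0% in wild-type animal 1, while Igkv10-96, Igkv1-117, Iglv1 and Iglv3 run through the blood columns.

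Lambda use differed between tissues. Iglv1 led the lambda reads of all 4 transgenic skin libraries with 353, 281, 136 and 33 counts, or 56.0%, 95.6%, 81.4% and 84.6% of lambda reads. Wild-type skin had 0, 0, 6 and 4 Iglv1 counts, too few in lambda reads for shares. Iglv2 had 266, 7, 24 and 6 counts in transgenic skin and 0, 0, 0 and 2 in wild-type skin. Iglv3 had only 11, 6, 7 and 0 counts in transgenic skin and 0, 1, 1 and 0 in wild-type skin, 26 in all. In blood Iglv3 had 39 to 134 counts in each library, 601 in all, and led the lambda reads in 6 of 8 libraries with 44.9% to 67.5%. Iglv1 led in the other two, transgenic animal 2 with 39.1% and wild-type animal 3 with 56.8%.

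The leaders of a chain were rarely the same in skin and blood of an animal. No animal of 8 had the same heavy leader in both, 1 of 8 had the same kappa leader (Igkv1-117 in transgenic animal 3) and 1 of the 4 with enough lambda reads had the same lambda leader (Iglv1 in transgenic animal 2). Heavy leaders in blood were Ighv1-26 in 3 libraries, Ighv9-3 in 2, and Ighv3-6 (tied with Ighv1-26), Ighv1-22 and Ighv1-15 in 1 each. Almost every member was present in blood: 87 were seen in all 8 libraries and 26 in 7. Igkv7-33 was the exception, with 15 counts in the skin of transgenic animal 1 and 0 in each blood library. Igkv18-36 had 28 counts in that same skin library, 0 in the other skin libraries and 6 in blood.

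Likeness of segment shares between libraries was described with the Morisita-Horn index, which is 1 for equal shares and 0 for no overlap. The 28 pairs of blood libraries had 0.819 to 0.960 (median 0.891). Medians were 0.899 within transgenic blood, 0.880 within wild-type blood and 0.894 over the 16 pairs of mixed genotype. The 28 pairs of skin libraries had 0.0224 to 0.502 (median 0.164), with medians of 0.282 within transgenic and 0.198 within wild-type skin. Skin and blood of the same animal had 0.0703 to 0.646 (median 0.392, 8 pairs), and those of different animals 0.0545 to 0.685 (median 0.386, 56 pairs). The medians for the same and for different animals were thus close. The index is held down by small numbers of reads, and wild-type skin libraries had the fewest, 112 to 260.

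**Figure D5:**
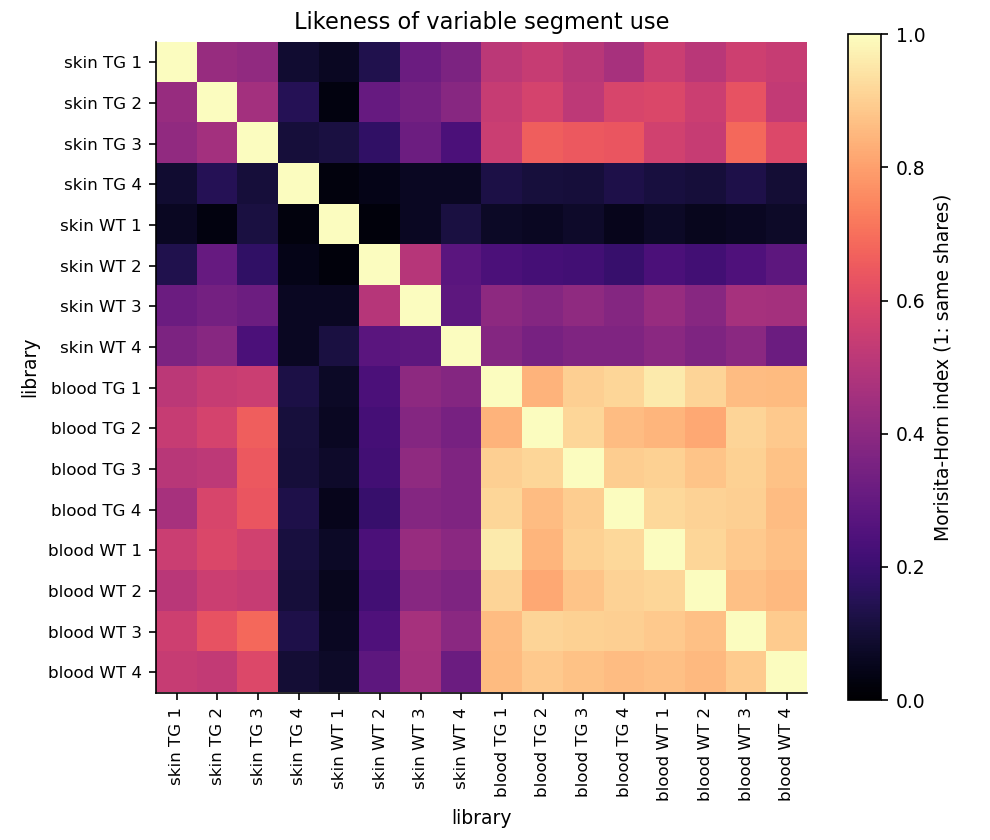
Morisita-Horn index for each pair of the 16 libraries, from 0 (dark) to 1 (light). The blood block is uniformly light (0.819 to 0.960) and skin pairs are dark (0.0224 to 0.502), with transgenic animal 4 and wild-type animal 1 the least like any other library.

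Single members were compared between genotypes with edgeR's quasi-likelihood test over all genes, with sex as a covariate and a Benjamini-Hochberg adjusted p under 0.05 as the threshold. In skin 38 of the 126 members passed the filter on low counts, and 16 of these had at most 3 counts in wild-type skin. None of the 38 would have passed on its wild-type libraries alone, so all of them passed with their transgenic counts. The values over the tested members are therefore a description and no support for a difference. No member passed the threshold, in a comparison in which 2 of 17901 genes (0.0112%) did. The smallest adjusted p was 0.163, for Iglv1 with a log2 fold change of 6.04 (SE 1.07). At an unadjusted p under 0.05, 33 of the 38 tested members were higher in transgenic skin, beside 8.12% of all genes tested. All 38 had positive log2 fold changes, from 0.66 to 9.87, with a median of 4.78 beside -0.01 over all genes tested. DESeq2 with the same covariate called 28 of the 38 members, beside 6.14% of all genes. Of all 126 members, 29 had every transgenic skin library above every wild-type one in CPM, and none the reverse, beside 3.61% of genes with at least 10 skin counts. Segments high in 1 animal, such as Igkv8-28 (log2 fold change 9.87, SE 2.93, edgeR adjusted p = 0.254) and Igkv6-15 (5.40, SE 2.10, edgeR adjusted p = 0.272) had large values and large errors. Without wild-type animal 2, 1 member passed, Ighv1-9 (log2 fold change 7.004, edgeR adjusted p = 0.0444), that is 1.3% of the 77 members tested there beside 1.49% of all genes.

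In blood 51 members were tested and none passed the edgeR threshold, beside 85 of 11174 genes (0.761%), and none passed with DESeq2, beside 4.04%. The median log2 fold change of the tested members was -0.56, beside -0.04 over all genes, and 8 were positive. At an unadjusted p under 0.05, 8 members were lower in transgenic blood and 0 higher, beside 6.76% of genes lower. All 4 transgenic blood libraries lay below all 4 wild-type ones for 8 of the 126 members, beside 3.59% of genes. The smallest edgeR adjusted p was 0.134, for Ighv1-22, with 15, 4, 8 and 8 counts against 23, 11, 25 and 12. The blood values depended on transgenic animal 2: without it the median was -0.995 and 4 members passed as lower (Iglv1, Igkv5-48, Igkv10-96 and Iglv2, edgeR adjusted p = 0.0369 to 0.0466), that is 6.78% of the 59 tested there, near the 5.33% of all genes. Other blood cell genes differed along with these values, and their part was not tested. B cell genes summed to 387 to 780 CPM in transgenic and 672 to 997 CPM in wild-type blood, with 0 of 15 positive and a median of -0.59. Neutrophil genes summed to 2492 to 8061 CPM against 140 to 1934 CPM, and 3 of the 6 tested passed the edgeR threshold as higher. T cell genes had 3 of 12 past it as lower.

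Whether the genotype difference was larger in skin than in blood was tested by the tissue-by-genotype term of an edgeR fit over the 16 libraries, with animal as a block. Of 78 members tested, 2 passed, beside 1.35% of 16655 genes. For Iglv1 the difference in skin exceeded that in blood by 6.84 on the log2 scale (SE 1.10, edgeR adjusted p = 0.0188), from 353, 281, 136 and 33 counts in transgenic and 0, 0, 6 and 4 in wild-type skin, and 30, 136, 33 and 34 against 73, 55, 113 and 31 in blood. For Ighv5-16 it was 5.32 (SE 1.09, edgeR adjusted p = 0.0479), with 16, 23, 5 and 3 against 15, 2, 7 and 2 counts in blood. Both genes were high in transgenic skin and overlapped between genotypes in blood. The skin counts that chose the members enter this term, so values over the tested members are a description: 77 of 78 were positive, with a median of 4.82 beside 0.07 over all genes. The call of Iglv1 was lost when transgenic animal 3, wild-type animal 3 or wild-type animal 4 was left out (edgeR adjusted p = 0.0507 to 0.0657), and that of Ighv5-16 without any animal other than transgenic animal 2 (edgeR adjusted p = 0.0704 to 0.13) and with RLE scaling (edgeR adjusted p = 0.0501). Without transgenic animal 2 the term passed for 16 of 72 members, or 22.2%, beside 5.17% of all genes.

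Constant genes, to which the variable segments are spliced, were separated by genotype in skin more for the light chains than for the heavy chain of IgM; this order was not tested. Igkc, the kappa constant gene, had 21234, 14070, 3575 and 2336 counts in transgenic skin and 223, 548, 417 and 355 in wild-type skin. Kappa variable counts per 100 Igkc counts were 17.8 to 30.4 in transgenic skin, 22.8 to 33.2 in wild-type skin and 27.8 to 36.6 in blood, which overlap. Ighm, the constant gene of IgM, had 31712, 4521, 4834 and 6730 counts in transgenic skin but also 3627, 3298, 2428 and 2755 in wild-type skin. Heavy variable counts per 100 heavy constant counts were 6.96, 7.43, 6.87 and 3.74 in transgenic skin, 1.10, 2.89, 1.48 and 1.28 in wild-type skin and 4.56 to 6.31 in blood. Wild-type skin thus had fewer heavy variable counts for its heavy constant counts. Ighm counts per Igkc count were 5.82 to 16.3 there, 0.32 to 2.88 in transgenic skin and 1.43 to 2.20 in blood.

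The class of the heavy chain differed among the transgenic animals. Igha, the constant gene of IgA, the antibody class of mucosal surfaces, took 69.9% of heavy constant counts in animal 2 and 41.4% in animal 3, but 7.30% and 10.1% in animals 1 and 4, in which Ighm took 89.8% and 85.1%. In wild-type skin Igha took 3.23% to 19.9% and in blood 0.30% to 4.14%. Ighd, the constant gene of IgD carried by naive B cells, took 13.6% to 32.2% in blood and 0.17% to 2.34% in skin. The IgG genes together took 1.97% to 4.86% in transgenic skin, 0.58% to 2.77% in wild-type skin and 0.62% to 3.51% in blood. Jchain, which joins IgM or IgA into polymers, had 33.2 to 68.8 counts per 100 variable counts in transgenic skin, 50.9 to 75.0 in wild-type skin and 0.53 to 3.52 in blood.

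Of the 13 genes of the constant list, 12 were in the table and 11 were tested in skin, 10 of them above 0 (median log2 fold change 4.14) and none past the edgeR threshold. In the skin-minus-blood test 7 of 12 passed, beside 1.35% of all genes. For all 7 the difference of transgenic minus wild type was greater in skin than in blood. They included Igkc (4.86, SE 0.60, edgeR adjusted p = 0.00619), Jchain (5.08, SE 0.80, edgeR adjusted p = 0.0176), Iglc1, a lambda constant gene (5.48, SE 0.91, edgeR adjusted p = 0.0210), and Igha (4.58, SE 0.84, edgeR adjusted p = 0.0305). Ighm did not (1.78, SE 0.78, edgeR adjusted p = 0.315). The call of Igkc was kept with any 1 animal left out. Those of Jchain (edgeR adjusted p = 0.0527 to 0.0658) and Iglc1 (0.0516 to 0.0725) were lost without transgenic animal 3 or wild-type animal 1, 3 or 4, and that of Iglc1 also without wild-type animal 2. That of Igha was lost without transgenic animal 1 or 3 or wild-type animal 1, 3 or 4 (edgeR adjusted p = 0.0655 to 0.0818). In skin alone, DESeq2 called all 4 of these genes (DESeq2 adjusted p = 9.72e-19 to 0.00178), beside 6.14% of all genes. With edgeR, Igkc and Jchain passed in skin without transgenic animal 4 or wild-type animal 2, and Iglc1 without transgenic animal 4 (edgeR adjusted p = 0.0121 to 0.046).

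Joining segments were not used to choose the members. They lie on the same joined transcripts in the same libraries, so their counts are no independent support. In transgenic skin Igkj5 had 263, 112, 73 and 63 counts and Igkj4 357, 63, 29 and 8, against 1 to 8 and 0 to 2 in wild-type skin. Igkj3, known as a non-functional segment and named here after its values were seen, had 0 counts in all 8 skin libraries and 4 to 13 in each blood library. Among heavy joining segments, Ighj2 had 119, 39, 21 and 21 counts in transgenic and 1 to 3 in wild-type skin, and Ighj3 21, 16, 17 and 6 against 0 to 2. Ighj1, with 85, 31, 15 and 5 against 2, 1, 10 and 8, and Ighj4, with 26, 26, 5 and 2 against 0, 5, 1 and 2, overlapped in counts.

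Markers of the cells that make antibody were examined next to the segments. Of the 15 B cell genes, 12 were tested in skin, 9 were positive and none passed the edgeR threshold (median log2 fold change 1.04). Their summed level was 61.4 to 75.4 CPM in transgenic skin, 33.4 to 65.0 in wild-type skin, which overlap. Ms4a1, which encodes the B cell surface protein CD20, was near 0 in skin of both genotypes, with 3 to 17 counts in transgenic and 0 to 14 in wild-type skin, against 559 to 2268 in blood. Transgenic animal 2, with 4136 variable counts in skin, had 4 Ms4a1 counts there. Of the 11 plasma cell genes all were tested, 8 were positive and none passed (median 0.58); Jchain is in the constant list too. Their summed level was 872 to 1017 CPM in transgenic and 752 to 1471 CPM in wild-type skin, which overlap. Mzb1, an endoplasmic reticulum protein of plasma cells, had 137, 62, 39 and 58 counts against 14, 17, 5 and 14, without overlap in CPM, while Sdc1, which keratinocytes also make, did not differ in that way. Variable counts per B cell count were 4.16, 1.92, 0.91 and 0.41 in transgenic skin, 0.08 to 0.18 in wild-type skin and 0.13 to 0.21 in blood.

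Genes of B cell homing and survival were a further list. Of its 14 genes 13 were tested in skin, 11 were positive and none passed the edgeR threshold (median log2 fold change 0.99). Cxcl13, a chemokine that attracts B cells, had 7811, 1558, 469 and 1187 counts in transgenic skin and 81 to 102 in wild-type skin. Ccl27a, a keratinocyte chemokine, had 2526 to 7390 counts against 877 to 1693, and Cxcl12, a stromal chemokine of plasma cell niches, 7028 to 16476 against 7581 to 9898. In the skin-minus-blood test 2 of 13 passed, beside 1.35% of all genes. For both, the difference of transgenic minus wild type was greater in skin than in blood. Such a term also takes in lower values in transgenic blood. They were Ccl27a (4.38, SE 0.78, edgeR adjusted p = 0.0281) and Ccr7 (3.91, SE 0.40, edgeR adjusted p = 0.0037), a homing receptor that T cells also carry, named after its values were seen.

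Other gene groups also differed between these libraries, and their part in the result was not tested. Hair follicle genes, all 18 in the table, summed to 18.8, 3953, 21.9 and 24.7 CPM in transgenic skin and 7858, 23.3, 56136 and 13838 CPM in wild-type skin. Transgenic animal 2 and wild-type animal 2 thus differed from the rest of their groups. T cell genes summed to 82.0 to 176 CPM in transgenic skin and 32.3 to 85.3 in wild-type skin, with all 12 positive and none past the edgeR threshold. In the skin-minus-blood test 9 of 12 passed, beside 1.35% of all genes. That term takes in blood too, where their median log2 fold change was -0.85, beside 1.40 in skin. In blood the 6 keratinocyte genes summed to 1.43 to 3.57 CPM in transgenic and 41.2 to 125 CPM in wild-type libraries. All 6 passed the edgeR threshold as lower in transgenic blood, beside 0.761% of all genes called there. Germinal centre genes, 5 of 7 tested, showed 4 positive values in skin and no call. Genes of rearrangement and B cell precursors, 5 of 6 in the table and 0 tested, summed to 112 CPM in blood of wild-type animal 4. All other blood libraries had 0.32 to 1.46 CPM, so that library differed from the rest of its group.

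T cell receptor variable segments, taken by the same minimum, gave a comparison in the same libraries. Of 21 symbols 18 reached 10 counts in skin, and they summed to 2.84 to 10.98 CPM in transgenic and 1.06 to 4.97 CPM in wild-type skin, which overlap. Trdv4, the segment of the gamma-delta T cells of mouse epidermis, led every skin library, with 20% to 50.2% of reads in transgenic and 60.3% to 88.9% in wild-type skin. Over all chains, no immunoglobulin segment led more than 2 of the 8 skin libraries.

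Segments of the same family did not keep a fixed share. The large Ighv1 family had 23.0% to 67.4% of heavy reads in skin (median 55.2%) and 33.1% to 57.2% in blood (median 50.7%). The 6 Igkv8 members took 4.29% to 56.1% of kappa reads in skin (median 19.3%) but 7.56% to 13.01% in blood (median 9.35%). Igkv1 took 1.43% to 29.7% in skin and 13.98% to 20.04% in blood. In position, the 29 heavy members nearest the joining segments held 33.3% to 70.3% of heavy reads in skin and 38.5% to 66.0% in blood, and the 32 nearest kappa members 10% to 81.7% and 35.9% to 46.5%. The ranges over all 8 skin libraries contained those in blood in each of these cases. Apart from Ighv1, their low ends came from wild-type animal 1, with only 42 heavy and 70 kappa reads. In transgenic skin alone the nearest heavy members held 38.7% to 70.3% and the nearest kappa members 31.0% to 81.7%. Outside wild-type animal 1, every skin library had an Igkv8 share above the blood range, in transgenic animal 2 only just.

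In cultured keratinocytes a value was at hand for 1 of the 126 members, so they give no background for the set. This member, Igkv12-89, had 0, 2 and 2 counts in the transgenic cultures and 0, 4 and 3 in the wild-type cultures, of 33412093 to 51877437 counts per library. Ighm had 0 to 5 counts there.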

How the data were processed

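Gene counts of skin, blood and keratinocyte libraries were used as the authors deposited them; the build mm10 and the tools HTSeq 0.6.1, STAR 2.5.2 and DESeq2 are listed, with no roles, per the submitters' processing notes. Library preparation was stranded, per the labels' protocols; neither the strand setting nor the rule for reads matching several segments is given in the sources used here. All sample columns were used.

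Members and gene lists were chosen with earlier results of these data known. Named members led a chain in a library, were among the 8 heavy, 8 kappa or 4 lambda segments with most skin counts, or passed a test. CPM used TMM scaling. Tests were edgeR 4.0.16 quasi-likelihood fits (R 4.3.3, limma 3.58.1) with its filter on low counts and Benjamini-Hochberg adjustment, and sex as covariate within a tissue. The skin-minus-blood fit kept animal as a block, since the labels give the same animal tags in both tissues. DESeq2 1.42.0, other scalings and filters, and leaving out each animal were alternatives. Each animal is 1 replicate, so p-values measure the spread between animals. Replicates differed beyond counting noise (chi-square per degree of freedom 14.4 to 735 over 24 pairs). The scripts were tested on simulated data. Sequences and coordinates came from GENCODE M21 (mm10), read with Python 3.11.15 and Biopython 1.88.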

Additional observations from a re-analysis of the deposited data

Results flagged for a closer look

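In each group of 4 libraries, the highest or lowest value was compared with the gap to its neighbour, for 105 groups; 22 had a library apart, and chance flags about 5% of groups, a share that holds only for values not chosen by their height in 1 library. Named segments were chosen in part by leading a library, so a library apart among them restates that choice. Among shares of the variable segment reads, the leading segment held 36.75% in skin of transgenic animal 4 (Igkv8-28; the others had 6.79% to 10.6%) and 41.96% in skin of wild-type animal 1 (Igkv2-109; the others had 10.7% to 14.6%). Heavy variable counts per 100 heavy constant counts were 3.743 in skin of transgenic animal 4, below the 6.87 to 7.43 of the others.

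Single segments stood apart mostly in skin of transgenic animal 1, which was apart for 7 of the 21 named members with a mean of at least 1 CPM in transgenic skin. They were Ighv6-6 with 9.447 CPM, Ighv1-80 with 7.402, Igkv6-15 with 24.22, Igkv4-55 with 16.99, Igkv4-72 with 15.87, Igkv8-27 with 11.35 and Iglv2 with 7.661, together with the constant gene Ighm at 913.4 CPM. In skin of transgenic animal 2, Ighv5-16 with 5.144 CPM and Vgll3 with 778.2 CPM were above the others, and in skin of animal 3 Ighv1-22 with 3.382 CPM. In blood, transgenic animal 2 was above the others for Ighv6-3 (3.469 CPM), Igkv8-24 (3.154), Iglv2 (4.994), Igha (15.66) and Jchain (3.68). In skin of wild-type animal 2, Igkc at 21.81 CPM and Jchain at 5.293 CPM were above the others, and in blood of wild-type animal 4 Igkc at 207.3 CPM was below them.

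The interaction term of the edgeR fit, skin minus blood, passed the threshold for Iglv1 (6.84 on the log2 scale), Ighv5-16 (5.323), Igkc (4.859), Igha (4.581), Iglc1 (5.483) and Jchain (5.079). It did so for 1.35% of all genes tested. Only the call of Igkc was kept with any 1 animal left out. Iglv1 and Ighv5-16 were members, chosen on skin counts that enter this term.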

How the results depend on the processing

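Of 825 alternative values for 70 results, pooled ratios aside, 690 kept direction and side of the threshold or moved by less than the spread, and 4 reversed: Ighv1-76 (-0.24) and Igkv2-109 (-0.34) in skin without transgenic animal 3, and Igkv1-117 in blood without transgenic animal 1 (0.16) or 4 (0.066), as log2 fold changes. With 1 animal left out these 3 ran from -0.2422 to 2.821, -0.3365 to 3.873 and -0.7576 to 0.1599. Without the library with most of a segment's counts, an alternative chosen after seeing the data, the pooled skin ratio of Igkv2-109 went from 1.87 to 0.561. In skin the 2 genes called became 1100 with DESeq2 and 0 without the sex term, and 0 to 278 with 1 animal left out; members called went from 0 to 28 with DESeq2 and 0 to 1 with 1 animal left out. In blood the 85 genes called became 451 with DESeq2, 1101 with no filter and 136 without the sex term, and 3 to 611 with 1 animal left out (611 without transgenic animal 2); members called were 0 to 4. In the skin-minus-blood test 225 genes became 78 to 875 with 1 animal left out, and the 2 members became 1 with RLE scaling, 5 with no filter and 0 to 16 with 1 animal left out. Median log2 fold changes of tested members ran from 4.131 to 6.015 in skin, -0.9945 to -0.3101 in blood and 3.728 to 4.995 for skin minus blood. Same-numbered transgenic and wild-type animals share a number and a sex, and the labels give no common litter, batch or day: correlations of their deviations were 0.0865, -0.448, -0.11 and 0.0901 in skin and 0.37, -0.00907, -0.299 and -0.155 in blood. With that number as a replicate block the calls were 0 genes and 0 members in skin and 76 genes and 0 members in blood. In the skin-minus-blood test, where the block is the animal itself, the fit with no replicate block called 217 genes and 17 members. Medians of members with a count in blood (118.5 in both genotypes) became 125 in transgenic and 125.5 in wild-type animals at a member minimum of 1, and 107 and 106 at 20. Asking for 3 counts gave 95.5 and 102, and asking for 5 gave 71.5 and 83, with 9.5 in wild-type skin. Medians in 112 reads in transgenic and wild-type blood became 58.32 and 59.35 at a member minimum of 1, 58.15 and 59.2 at 5, and 54.8 and 55.39 at 20. Without the leading segment they were 41.69 and 42.59, and 33.52 in transgenic skin. Effective numbers in blood became 50.37 and 49 at a minimum of 20, and 59.35 in wild-type blood without the leading segment. The leading share became 4.791% in transgenic and 5.112% in wild-type blood without that segment, 7.967% within heavy segments of transgenic blood, 7.573% and 7.03% within kappa, and 51.57% and 54.92% within lambda, with 83.03% within lambda in transgenic skin. Without the leading segment, the 10 leading held 31.72% in wild-type blood, and its level by raw library totals, without TMM scaling, was 99.17 CPM. Wild-type skin had too few lambda reads for a value. The cause of these changes was not tested, apart from alternatives that by construction hold fewer reads, segments or animals.

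With 1 animal left out, median levels in CPM ran from 68.58 to 117.6 in transgenic and 4.499 to 5.533 in wild-type skin, and 57.67 to 87.47 and 115 to 144.3 in blood. Members with a count ran from 80 to 113 and 28 to 38 in skin, and 118 to 119 and 116 to 121 in blood. The 112 to 260 member reads of wild-type skin limit every share there.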
